A study of Rattus norvegicus with 8 samples.

Results

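The genes of prostaglandin synthesis and prostaglandin reception were followed in H9c2 cells, a line of myoblasts from rat heart, after 6 h with 100 µg/ml OxPAPC. OxPAPC is an oxidized phosphatidylcholine preparation, made from a lipid that carries arachidonic acid. The set held 9 genes, picked by symbol from the 40994 genes of the deposited count table, and every symbol matched 1 row. It comprised both cyclooxygenases (Ptgs1, Ptgs2), 3 terminal synthases (Ptges, Ptges2, Ptgis), 3 receptors (Ptger2, Ptger4, Ptgfr) and the degrading enzyme Hpgd. Bulk messenger RNA had been sequenced from 4 OxPAPC libraries, numbered 2, 9, 16 and 23, and from 4 vehicle libraries, numbered 1, 8, 15 and 22. All cells were of passage 6 and without genetic modification, and all libraries carried 1 batch date. H9c2 is a single line, and no label states whether each sample was its own culture. The p-values below therefore reflect sample-to-sample spread that may be technical. The RNA is that of all cells of a sample, so fewer cells that use a gene and less of its RNA per cell cannot be told apart.

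Prostaglandins are made from arachidonic acid that phospholipases release from membranes. A cyclooxygenase, COX-1 (Ptgs1) or COX-2 (Ptgs2), turns it into prostaglandin H2, and terminal synthases convert that into prostaglandin E2, prostacyclin, prostaglandin F2α and the rest, which act through receptors on the cell surface. COX-1 is usually described as constitutive and COX-2 as inducible. In cultured human endothelial cells the prostaglandin E receptor EP2 (Ptger2) has been reported as a receptor for an oxidized phospholipid of OxPAPC.

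Of the 9 genes, 6 had enough reads to test, and 4 of these rose, none fell and 2 did not pass. Over all 13206 tested genes 34.3% changed, 17.9% rose and 16.4% fell, which is 2369 rises and 2164 falls, or 1829 and 2723 with upper-quartile scaling. The 2 larger rises, Ptgs1 about 3-fold and the prostaglandin F receptor Ptgfr about 2.3-fold, were at least 2-fold, as were those of 1.02% of all tested genes. Ptgs2 and the prostacyclin synthase gene Ptgis rose by less than 1.2-fold. The median log2 fold change of the 6 genes was 0.16, against 0.0022 over all tested genes. The 9 genes were chosen with earlier results of these data known, so these shares and medians are a description.

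Total counts were 15.4 to 19.8 M in OxPAPC libraries and 17.1 to 21.7 M in vehicle libraries. Levels are counts per M of the TMM-scaled library (CPM), and differences are log2 fold changes of OxPAPC over vehicle with their SE. Adjusted p-values come from edgeR's quasi-likelihood test with Benjamini-Hochberg adjustment across the tested genes, and "rose" and "fell" stand for an adjusted p under 0.05. Of 6 myoblast markers 5 were tested, and Myf5 had 1 count over the 8 libraries. Myod1 had 94.1 ± 3.85 CPM in OxPAPC and 85.9 ± 3.55 CPM in vehicle libraries (SD, n = 4). The 6 cardiomyocyte markers were mixed. Troponin T (Tnnt2) had 113 ± 2.99 CPM in OxPAPC and 128 ± 7.28 CPM in vehicle libraries (SD, n = 4), Actn2 had 423 counts over the 8 libraries, and Myh6, Nppa, Ryr2 and Myl7 had 3, 7, 3 and 4 counts. Of 5 endothelial markers none passed the filter, their summed level was 0.200 to 1.08 CPM in OxPAPC and 0.350 to 0.935 CPM in vehicle libraries, and Cdh5 and Kdr had no count. Of 6 macrophage markers 3 were tested and none passed, the sum was 22.2 to 24.2 CPM in OxPAPC and 23.9 to 26.9 CPM in vehicle libraries, nearly all of it Cd14, and Ptprc and Adgre1 had no count. The 5 fibroblast markers summed to 64396 to 69297 CPM in OxPAPC and 67416 to 71213 CPM in vehicle libraries, mostly Col1a1 and Col1a2. The 4 smooth muscle markers summed to 6164 to 6450 and 7580 to 7816 CPM, in the same order of groups. The 6 myoblast markers summed to 438 to 490 and 555 to 605 CPM. The myoblast list did move with treatment, with 1 rise and 2 falls among 5 tested genes. Among these was a fall of the myogenic factor Myog (−1.25 ± 0.05, edgeR adjusted p = 3.08e-15). In the other lists 3 of 4 smooth muscle, 2 of 4 tested fibroblast and 1 of 2 tested cardiomyocyte markers fell, and none rose. Over all tested genes 16.4% fell. The part of these lists in the results was not tested.

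The 250 bases before the RefSeq start of Ptgs1, Ptgfr and Ptgs2 are shown because these are the cyclooxygenase and the receptor that moved most and the cyclooxygenase that moved little. They come from RefSeq on GRCr8, 5′ to 3′ along the gene, at chr3:39981169-39981418 on the plus strand for Ptgs1, chr2:243425624-243425873 on the minus strand for Ptgfr and chr13:64713813-64714062 on the plus strand for Ptgs2. Capitals mark matches to the searched motifs.
Ptgs1: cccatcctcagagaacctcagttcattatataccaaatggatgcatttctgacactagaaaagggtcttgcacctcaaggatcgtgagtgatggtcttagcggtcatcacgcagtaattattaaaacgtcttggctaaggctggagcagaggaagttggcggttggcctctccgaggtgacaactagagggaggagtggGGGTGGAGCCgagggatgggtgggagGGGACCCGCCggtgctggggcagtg
Ptgfr: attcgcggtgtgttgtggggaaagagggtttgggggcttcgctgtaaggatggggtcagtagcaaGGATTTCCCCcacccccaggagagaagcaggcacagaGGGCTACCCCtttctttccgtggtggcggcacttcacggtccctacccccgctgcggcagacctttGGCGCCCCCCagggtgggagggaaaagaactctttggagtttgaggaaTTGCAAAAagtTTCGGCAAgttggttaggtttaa
Ptgs2: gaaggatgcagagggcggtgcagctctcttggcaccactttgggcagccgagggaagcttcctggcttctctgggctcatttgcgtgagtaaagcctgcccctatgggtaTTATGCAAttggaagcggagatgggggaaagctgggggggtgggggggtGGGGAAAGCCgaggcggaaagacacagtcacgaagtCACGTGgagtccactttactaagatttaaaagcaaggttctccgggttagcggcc

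Both strands were searched for 8 motifs. The NF-kappaB pattern (3 G, any 5 bases, 2 C) matched in all 3 windows, as it did in 43.5% of 27457 promoter windows of the same length. The C/EBP pattern TTGCNNAA matched in Ptgfr and Ptgs2, and in 9.20% of all windows. The E-box CACGTG matched 55 to 50 bases before the start of Ptgs2, and in 5.79% of all windows. The antioxidant response element core TGACNNNGC (10.2% of all windows), the CRE TGACGTCA (1.70%), the shorter TGACG (19.0%), which lies within it, the AP-1 pattern TGANTCA (6.36%) and the TATA box TATAAA (13.1%) had no match in these 3 windows. Of the other 4 genes with a RefSeq window, Ptger2 held the antioxidant response element core and the NF-kappaB pattern, Ptges the NF-kappaB and C/EBP patterns and Hpgd the TGACG pattern, and Ptger4 held no match. A match describes the letters of a window and says nothing of binding there.

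The COX-1 gene rose about 3-fold and the COX-2 gene by about 15%. Ptgs1 (gene 24693, chromosome 3, 19584015 to 19605589 in the deposited table, whose build is not given) had 29.2, 32.2, 27.3 and 27.96 CPM in OxPAPC libraries 2, 9, 16 and 23, against 9.85, 8.34, 9.35 and 9.87 CPM in vehicle libraries 1, 8, 15 and 22. Every OxPAPC library lay far above every vehicle library, and the counts behind these levels were 431 to 613 and 165 to 180 per library. Means were 29.2 ± 2.18 CPM in OxPAPC and 9.35 ± 0.719 CPM in vehicle libraries (SD, n = 4). This was a difference of 1.65 ± 0.08 in log2 CPM (edgeR adjusted p = 2.21e-13). By p it ranked 80 among the 13206 tested genes.

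Ptgs2 (gene 29527, chromosome 13, 62164080 to 62169770) had 29.4, 27.9, 28.8 and 29.3 CPM in OxPAPC libraries 2, 9, 16 and 23, against 24.6, 27.2, 22.8 and 25.1 CPM in vehicle libraries 1, 8, 15 and 22. The groups did not overlap, but vehicle library 8 lay close below the OxPAPC libraries. The log2 fold change was 0.21 ± 0.06 (edgeR adjusted p = 0.0130). Without vehicle library 15, the lowest, Ptgs2 no longer passed (edgeR adjusted p = 0.0535, over a range of 0.00492 to 0.0535 for 17 alternatives). Its rank by p was 3322. The counted length of Ptgs2 was 1815 bases in a span of 5691, a multiple of 3 that equals 605 codons. The files do not say whether the untranslated ends of its message were part of what was counted.

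**Figure D1:**
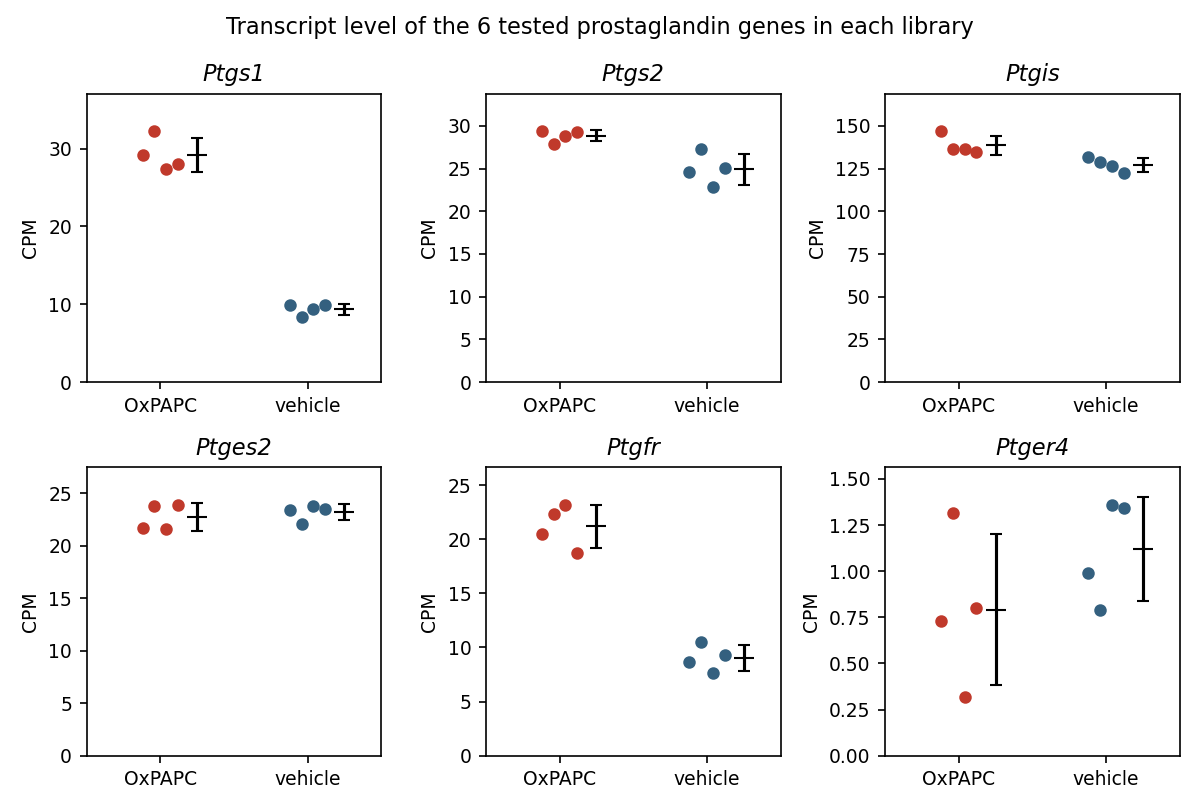
Each panel plots the level of 1 gene in CPM (y axis, from 0) in 4 OxPAPC and 4 vehicle libraries (points), with the mean and SD of each group as a bar beside the points. Ptgs1 and Ptgfr are separated widely, Ptgs2 and Ptgis narrowly, and Ptges2 and Ptger4 overlap.

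The share of Ptgs2 in the cyclooxygenase messages was lower in every OxPAPC library than in any vehicle library, but the test of the share could not pass once adjusted. The deposited FPKM values, counts per kb of gene length and M counts, summed over Ptgs1 and Ptgs2 to 26.2 ± 0.493 in OxPAPC and 17.3 ± 0.845 in vehicle libraries (SD, n = 4). Ptgs2 made up 60.7, 57.1, 61.8 and 61.6% of that sum in OxPAPC libraries 2, 9, 16 and 23, against 79.3, 83.4, 78.9 and 79.6% in vehicle libraries 1, 8, 15 and 22. With the lengths as counted, Ptgs2 was the larger part in all 8 libraries. Counts are not divided by length, so they favour Ptgs1, with 2787 counted bases against 1815 of Ptgs2. In counts the share of Ptgs2 was 50.2, 46.4, 51.4 and 51.1% in OxPAPC libraries, against 71.4, 76.6, 70.9 and 71.7% in vehicle libraries, in the same order. By counts Ptgs2 was the smaller part in OxPAPC library 9. Both kinds of share depend on which bases of Ptgs2 were counted. The share of FPKM averaged 60.3 ± 2.21% in OxPAPC and 80.3 ± 2.07% in vehicle libraries (SD, n = 4), a difference of −19.97 percentage points. The exact two-sided permutation p was 0.0286, the smallest that 70 splits can give, and 0.0857 adjusted over the 3 shares tested. The other shares rested on Ptges with 3 counts and Ptger2 with 1 count over the 8 libraries. The adjusted p of the Ptgs2 share could therefore not go under 0.05, and the adjusted test decides nothing about it.

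**Figure D2:**
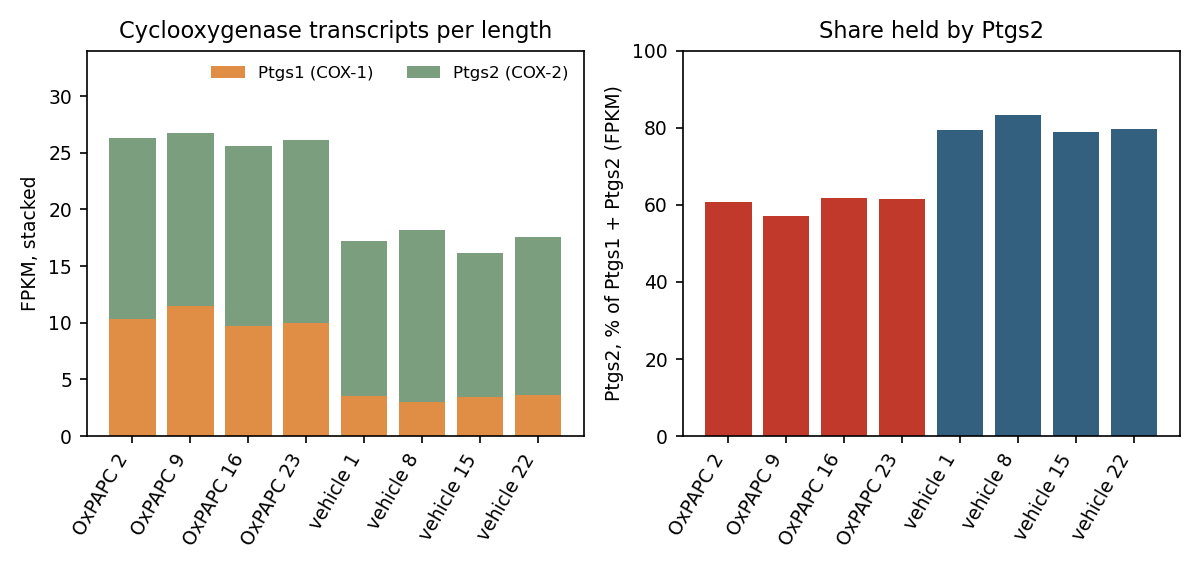
The left panel stacks the FPKM of Ptgs1 and Ptgs2 in each library, and the right panel plots the percent of their sum held by Ptgs2, OxPAPC libraries in red and vehicle libraries in blue. The summed level is higher in the 4 OxPAPC libraries, about 26 against 17 FPKM, and the Ptgs2 share is lower, 57.1 to 61.8% against 78.9 to 83.4%.

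Among the 3 terminal synthases of the set, that of prostacyclin had the highest level per length and rose slightly, the constitutive prostaglandin E synthase did not pass, and the inducible one was nearly absent. Ptgis (gene 25527, chromosome 3, 155928564 to 155964228), which makes the vasodilator prostacyclin, had 146.9, 136.5, 136.5 and 134.6 CPM in OxPAPC libraries 2, 9, 16 and 23, against 131.9, 128.8, 126.5 and 122.3 CPM in vehicle libraries 1, 8, 15 and 22. The groups did not overlap, although the gap between them was smaller than the spread within either. The log2 fold change was 0.12 ± 0.04 (edgeR adjusted p = 0.0145). The call was lost without OxPAPC library 2 (edgeR adjusted p = 0.0666) and without vehicle library 22 (0.0642), with upper-quartile scaling (0.0764) and with limma on log2(FPKM + 1) (0.0502), over a range of 0.00860 to 0.0764 for 17 alternatives.

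Ptges2 (gene 311865), a membrane-associated prostaglandin E synthase, had 21.6, 23.8, 21.5 and 23.9 CPM in OxPAPC libraries and 23.4, 22.05, 23.8 and 23.5 CPM in vehicle libraries, in the same order of libraries as above. The groups overlapped fully (−0.02 ± 0.07, edgeR adjusted p = 0.814). Ptges (gene 59103), the microsomal synthase that is induced together with COX-2 in many inflamed tissues, had 1 count over the 4 OxPAPC and 2 counts over the 4 vehicle libraries. A group with no count would allow up to 0.0430 CPM in OxPAPC and 0.0408 CPM in vehicle libraries (3 counts over a group, counting error only). Both groups had counts of Ptges, so its upper limits lie above these values. Its share of the FPKM of Ptges and Ptges2 was at most 0.806% in any library. With 3 counts of Ptges in all, the exact permutation test of this share (adjusted p of 1) could not pass.

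The prostaglandin F receptor rose while the receptors of prostaglandin E2 in the set were scarce. Ptgfr (gene 25652, chromosome 2, 240731185 to 240766674), which signals through Gq and calcium, had 20.5, 22.3, 23.2 and 18.8 CPM in OxPAPC libraries 2, 9, 16 and 23, against 8.69, 10.5, 7.65 and 9.35 CPM in vehicle libraries 1, 8, 15 and 22. The lowest OxPAPC library was well above the highest vehicle library, and counts were 308 to 425 and 135 to 226 per library. The log2 fold change was 1.22 ± 0.10 (edgeR adjusted p = 1.15e-09), rank 223 by p. On the log2(FPKM + 1) scale, which understates the change of low genes, it was 0.84.

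Ptger4 (gene 84023), which encodes EP4 and raises cAMP through Gs, had 11, 25, 5 and 16 counts in OxPAPC libraries 2, 9, 16 and 23, against 17, 17, 24 and 23 counts in vehicle libraries 1, 8, 15 and 22. The groups overlapped, with 0.791 ± 0.409 CPM in OxPAPC and 1.12 ± 0.280 CPM in vehicle libraries (SD, n = 4). The log2 ratio of OxPAPC over vehicle was −0.45 ± 0.35 (edgeR adjusted p = 0.352). Ptger2 (gene 81752), the EP2 receptor, had 1 count over the OxPAPC libraries and none over the vehicle libraries, which allows up to 0.0408 CPM in vehicle. Ptger4 accordingly made up 92.8% of the summed FPKM of the pair in OxPAPC library 23 and 100% in the other 7 libraries. With 1 count of Ptger2 in all, the exact permutation test of this share (adjusted p = 1) could not pass.

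Hpgd (gene 79242), the dehydrogenase that inactivates prostaglandins by oxidizing the 15-hydroxyl group, had no count over the OxPAPC libraries, which allows up to 0.0430 CPM, and 1 count over the vehicle libraries. Of the 6 tested genes 4 had groups that did not overlap in CPM, against 32.4% of all tested genes. No member overlapped a gene with more than 15 counts over the 8 libraries, the closest cases being noncoding genes on the opposite strand of Ptges2, Ptger2 and Ptger4.

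In FPKM, the order of levels in OxPAPC libraries was Ptgis (77.5 ± 2.78), Ptgs2 (15.8 ± 0.361), Ptges2 (11.0 ± 0.665), Ptgs1 (10.4 ± 0.762), Ptgfr (3.54 ± 0.329) and Ptger4 (0.108 ± 0.0563; SD, n = 4 each). In vehicle libraries it was the same, with Ptgis (72.5 ± 2.14), Ptgs2 (13.9 ± 0.990), Ptges2 (11.5 ± 0.414), Ptgs1 (3.40 ± 0.264), Ptgfr (1.54 ± 0.198) and Ptger4 (0.155 ± 0.0393). Ptges2 and Ptgs1 were neighbours that overlapped in OxPAPC libraries, 10.5 to 11.7 and 9.76 to 11.5 FPKM, and did not in vehicle libraries, 10.9 to 11.8 and 3.02 to 3.59 FPKM. The other neighbours were separate in both groups.

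The other genes of the pathway were described by 5 further lists. Their counts of rises and falls stand against 17.9% and 16.4% of all tested genes. All pathway lists, here and below, were chosen with earlier results of these data known. Their shares of rises and falls are therefore a description and do not test the lists. For the release of arachidonic acid, 4 of 10 phospholipase A2 genes were tested. The calcium-independent Pla2g6 rose (0.31 ± 0.06, edgeR adjusted p = 0.000239), the cytosolic Pla2g4a, which is selective for arachidonic acid, fell (−0.15 ± 0.05, edgeR adjusted p = 0.0159), and 2 did not pass. Pla2g4a had 47.5 ± 0.841 CPM in OxPAPC and 52.6 ± 1.75 CPM in vehicle libraries (SD, n = 4). The secreted enzymes Pla2g2a, Pla2g10 and Pla2g3 had no count in any library.

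All 3 tested genes among 7 further terminal synthases rose, against 17.9% of all tested genes, with a median log2 fold change of 0.45. Akr1b1, an aldose reductase that can also make prostaglandin F2α, had 791 ± 30.6 CPM in OxPAPC and 242 ± 5.31 CPM in vehicle libraries (SD, n = 4; 1.71 ± 0.03, edgeR adjusted p = 1.31e-21), to the extent that reads of similar aldo-keto reductases were not shared. Ptges3, the cytosolic prostaglandin E synthase that is also the HSP90 co-chaperone p23, rose by 0.38 ± 0.03 (edgeR adjusted p = 8.61e-09). Carbonyl reductase 1 (Cbr1), which can reduce prostaglandin E2 to F2α, rose by 0.45 ± 0.16 (edgeR adjusted p = 0.0467), but its groups overlapped and it passed in only 8 of 17 alternatives (adjusted p up to 0.123). The synthases of prostaglandin D2 and thromboxane, Ptgds, Hpgds and Tbxas1, had 25, 64 and 20 counts over the 8 libraries, and Prxl2b had 72, too few to test.

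Of 7 other genes for receptors and a receptor-associated protein, 2 fell, none rose and 2 did not pass, against 16.4% falls over all tested genes. The thromboxane receptor Tbxa2r had 7.33 ± 1.42 CPM in OxPAPC and 10.1 ± 0.770 CPM in vehicle libraries (SD, n = 4; −0.46 ± 0.12, edgeR adjusted p = 0.00541). Ptgfrn, a membrane protein that associates with the prostaglandin F receptor and lowers its binding, fell by 0.10 on the log2 scale (SE 0.03, edgeR adjusted p = 0.0103). It had 799 ± 14.6 CPM in OxPAPC and 854 ± 31.9 CPM in vehicle libraries, and its groups overlapped. The EP1 receptor Ptger1, which couples to calcium, had 46.7 ± 3.26 CPM in OxPAPC and 46.7 ± 1.59 CPM in vehicle libraries (log2 fold change 0.00024, SE 0.05, edgeR adjusted p = 0.998) and is named here after its values were seen. Ptger3, Ptgir and Ptgdr were untested, with 3, 59 and 0 counts over the 8 libraries.

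Among the genes for the export and further metabolism of prostaglandins 7 were found, of which 4 rose and 2 fell. Over all tested genes 17.9% rose and 16.4% fell. The uptake transporter Slco2a1 was untested, with 64 counts in all. Prostaglandin reductase 1 (Ptgr1), which reduces 15-keto prostaglandins and inactivates leukotriene B4, had 151 ± 4.46 CPM in OxPAPC and 29.1 ± 1.91 CPM in vehicle libraries (SD, n = 4; 2.37 ± 0.05, edgeR adjusted p = 5.16e-21). Abcc4, which exports prostaglandins, cyclic nucleotides and drugs, had 41.6 ± 1.28 CPM in OxPAPC and 21.8 ± 1.43 CPM in vehicle libraries (0.93 ± 0.06, edgeR adjusted p = 2.14e-11). Carbonyl reductase 3 (Cbr3) rose by 0.83 ± 0.10 (edgeR adjusted p = 4.65e-07), and Cbr1 belonged to this list as well. Ptgr2, the paralogue of Ptgr1, fell (−0.21 ± 0.05, edgeR adjusted p = 0.00316), as did the transporter Slco3a1 (−0.41 ± 0.06, edgeR adjusted p = 9.05e-06).

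In the lipoxygenase and leukotriene branch 12 of 13 genes were too scarce to test. The arachidonate 5-lipoxygenase gene Alox5 had 2 counts, its partner Alox5ap 1 and Alox15 4 over the 8 libraries. Leukotriene A4 hydrolase (Lta4h), which is also an aminopeptidase, was the exception and fell (−0.22 ± 0.05, edgeR adjusted p = 0.00221).

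**Figure D3:**
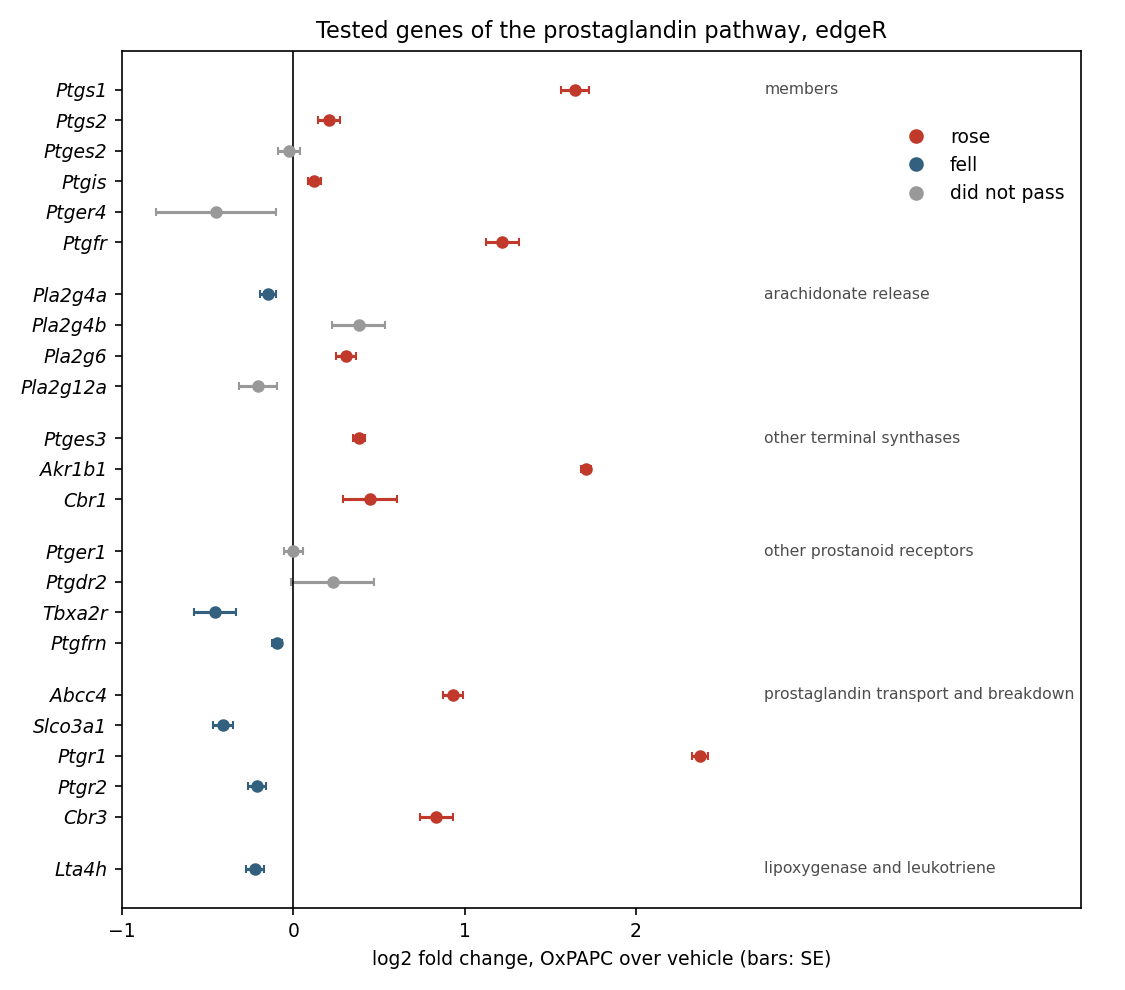
Points are log2 fold changes of OxPAPC over vehicle for each tested gene of the set and of 5 further pathway lists, bars are SE, and colour shows the edgeR call. Ptgr1, Akr1b1, Ptgs1 and Ptgfr lie above 1, and Tbxa2r, Slco3a1, Lta4h, Ptgr2, Pla2g4a and Ptgfrn fell.

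Factors known to set COX-2 transcription or the stability of its message were listed as 15 genes, all tested. Of these 6 rose, 2 fell and 7 did not pass, where 17.9% of all tested genes rose and 16.4% fell. The transcription factor Cebpb had 222 ± 16.4 CPM in OxPAPC and 129 ± 3.31 CPM in vehicle libraries (SD, n = 4; 0.78 ± 0.04, edgeR adjusted p = 3.77e-11), whereas its relative Cebpd fell (−0.62 ± 0.10, edgeR adjusted p = 2.79e-05). Creb1 rose by 0.30 ± 0.06 (edgeR adjusted p = 0.000575). Among proteins that bind and destabilize such messages, those that rose were Zfp36l1 (0.21 ± 0.04), Zfp36 (0.18 ± 0.06), Zfp36l2 (0.11 ± 0.03) and Khsrp (0.13 ± 0.04). Celf2, known to bind the COX-2 message, stabilize it and block its translation, fell (−0.14 ± 0.05). Of these last 5, Zfp36l1 alone passed in all 17 alternatives, and the others passed in 7 to 13 of them. With upper-quartile scaling, and with limma on either FPKM scale, 3 of the 15 rose. The NF-kappaB subunits in the list had log2 fold changes of −0.01 ± 0.06 (Nfkb1, edgeR adjusted p = 0.954) and 0.02 ± 0.04 (Rela, edgeR adjusted p = 0.705). NF-kappaB activity was not tested. Hnrnpd was lower in every OxPAPC library than in any vehicle library but did not pass (−0.08 ± 0.04, edgeR adjusted p = 0.0776). Nfat5 (0.34 ± 0.14, edgeR adjusted p = 0.107), Elavl1 (0.05 ± 0.05, 0.488), Tia1 (0.0035 ± 0.06, 0.975) and Tial1 (0.0030 ± 0.05, 0.973) did not pass either.

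Genes that respond to cAMP, the messenger of EP2 and EP4, were listed as 14, of which 12 were tested. Of these 6 rose, 1 fell and 5 did not pass, where 17.9% of all tested genes rose and 16.4% fell. A response to cAMP was not tested. The growth factor Areg had 3.69 ± 0.200 CPM in OxPAPC and 0.772 ± 0.130 CPM in vehicle libraries (SD, n = 4; 2.24 ± 0.22, edgeR adjusted p = 3.96e-08), with 10 to 18 counts per vehicle library. The phosphodiesterase Pde4b (0.67 ± 0.13), the repressor Crem (0.54 ± 0.11), the orphan receptors Nr4a3 (0.49 ± 0.14) and Nr4a1 (0.21 ± 0.07) and the phosphatase Dusp1 (0.23 ± 0.04) rose too, although Nr4a1 passed in only 12 of 17 alternatives. Pde4b overlaps a noncoding gene of the opposite strand with 219 counts, against 874 of Pde4b, that also rose (0.92, edgeR adjusted p = 0.00709). The kinase Sik1 fell (−0.27 ± 0.07), and Fosb, Nr4a2, Per1, Pde4d and Rgs2 did not pass.

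The 5 tested genes whose log2 CPM followed that of Ptgs1 most closely over the 8 libraries were Myc (Pearson r = 0.997), Tacc2 (0.997), Atic (0.997), Ywhag (0.997) and Pgd (0.995). All 5 rose, by log2 fold changes of 1.18, 0.77, 0.44, 0.52 and 1.02, and the libraries share 1 treatment contrast, so a gene with a tight difference between the groups scores high on this measure. It is given as a description.

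**Figure D4:**
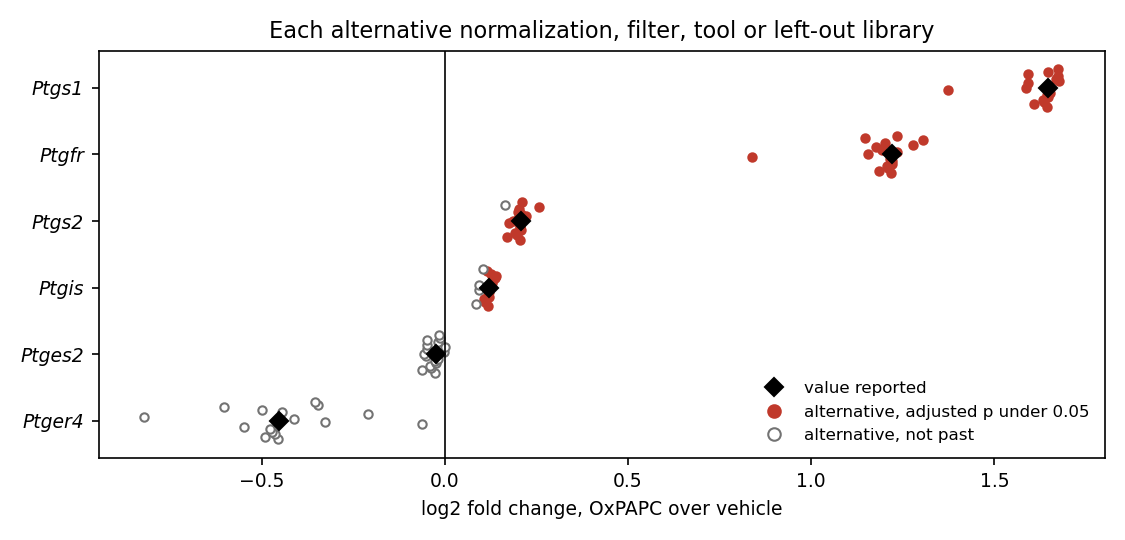
For each tested gene, points give the log2 fold change of OxPAPC over vehicle under each of 17 alternative settings (16 for Ptger4), filled where the adjusted p was under 0.05, and diamonds give the value reported. Ptgs1 and Ptgfr stay above 0.8 and filled in every setting, Ptgs2 is open in 1 and Ptgis in 4, and Ptges2 and Ptger4 are open in all.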

How the data were processed

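The authors deposited whole-number read counts per gene, not normalized, and FPKM values per gene for the same 8 libraries. The FPKM equalled the count per kb of counted length and per M counts of the library, times 1 factor per library of 0.987 to 1.02. The tools named are featureCounts 1.5.0-p3, HISAT2 2.0.5 and StringTie 1.3.3b, with no order stated, per the submitters' processing notes. As to the genome build, it was not given in the sources used here. Per the labels' protocols libraries were directional and non-directional, so a gene's reads may include those of a partner on the other strand. Both tables held 1 emptied line. Chromosome numbers were taken by gene identifier from a RefSeq table of GRCr8.

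The deposited counts went unchanged into edgeR 4.0.16 (R 4.3.3): filterByExpr (at least 10 counts at the median library size in 4 libraries and 15 in total), TMM scaling and the robust quasi-likelihood F test on all 8 libraries, with SE as the absolute log2 fold change over the square root of F. The code was tested on simulated counts. The biological coefficient of variation was 5.79%. Shares were compared by exact two-sided permutation tests. Chi-square per degree of freedom between libraries was 2.23 to 9.50 within groups and 23.1 to 35.0 across groups, and no pair of libraries differed by as little as sampling noise. Counts carry no molecular identifiers, so floors of 3 counts cover counting error only.

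The members, and the 7 pathway lists and cell type markers, were chosen with earlier results of these data known. Named genes were all members, every gene of a pathway list with an adjusted p under 0.05, and the 5 genes most like the member of smallest p (log2 of CPM + 0.5). Outside this rule, the genes that did not pass are named in the lists of COX-2 factors and cAMP responses, as is Ptger1. Some untested genes are given with their counts. Ptgr3 was not found by symbol. Alternatives were RLE, upper-quartile and no scaling factors, other filters, DESeq2 1.42.0, limma-voom and limma on log2(FPKM + 1) and log2(FPKM + 0.1) (limma 3.58.1), and leaving out each library. RefSeq promoter windows on GRCr8 were found for 7 of 9 members.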

Additional observations from a re-analysis of the deposited data

Results flagged for a closer look

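Single libraries stood apart from the other 3 of their group in 5 of the 72 gene and group combinations examined, by a gap that took up most of the group's range (Dixon's criterion), which chance gives in about 1 of 20. Ptgis was high in OxPAPC library 2, at 146.9 CPM against 134.6 to 136.5 CPM in the other 3. The Ptgs2 share of the summed cyclooxygenase FPKM was high in vehicle library 8, at 83.4% against 78.9 to 79.6%. Slco3a1 was high in OxPAPC library 23, at 42.0 CPM against 35.5 to 36.2 CPM, and so was Ptger1 there, at 51.5 CPM against 44.6 to 45.6 CPM. Pla2g4a was low in vehicle library 1, at 50.03 CPM against 53.3 to 53.8 CPM.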

How the results depend on the processing

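Ptgs1 and Ptgfr passed in every one of 17 alternatives. Leaving out 1 library at a time gave log2 fold changes of 0.16 to 0.26 for Ptgs2, 0.0938 to 0.139 for Ptgis, −0.0494 to 0.000571 for Ptges2, whose sign turned without OxPAPC library 16, and −0.0526 to 0.0241 for Ptger1. Ptgis did not pass with upper-quartile scaling (log2 fold change 0.0841) or on log2(FPKM + 1) (log2 fold change 0.0941). Nor did it pass without OxPAPC library 2 or without vehicle library 22. Ptger1, at 0.00024, turned sign with RLE factors (−0.0026), upper-quartile factors (−0.0369), library totals (−0.0113), no filter (−0.0150), DESeq2 (−0.0026), limma-voom (−8.24e-05), log2(FPKM + 1) (−0.0278) and log2(FPKM + 0.1) (−0.0295), and never passed. The number of arachidonate release genes that rose was 2 with no filter and 1 to 2 with 1 library left out (2 without OxPAPC library 2 or vehicle library 15). Of the COX-2 regulators, 3 rose with upper-quartile factors, log2(FPKM + 1) and log2(FPKM + 0.1), and 1 fell with log2(FPKM + 0.1) and 1 to 2 with 1 library left out (1 without OxPAPC library 2 or 9 or vehicle library 1, 8 or 22). The cause was not tested. Ptger4 had no value under the filter of 1 CPM in 4 libraries. No paired analysis was run, because the labels give the 2 groups no shared library number and tie no OxPAPC library to a vehicle library. Each OxPAPC number directly follows a vehicle number (1 and 2, 8 and 9, 15 and 16, 22 and 23). Whether these were replicate sets is not stated and was not tested. Ptges, Ptger2 and Hpgd, with 3, 1 and 1 counts over the 8 libraries, had too few counts for a fold change.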
